A study of Arabidopsis thaliana with 32 samples.

Results

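In 4-d-old roots of the Arabidopsis mutant sku5, 36 loci were listed at 0 FPKM in the ground control and above 0 in spaceflight. They were chosen by those values in the authors' deposited table for that pair of groups. Of the 39 loci listed at 0 there, 3 were left out because they hold seed storage, oil body or small heat shock genes named beforehand for leaving out. The 36 loci stand among 4882 loci that appear in any of 11 deposited tables. FPKM is the authors' estimate of a transcript's level, in sequenced fragments corrected for its length and for sequencing depth.

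The study grew seedlings of the accession Wassilewskija (WS) and of sku5, a mutant in the WS background named for its skewed root growth and given without its allele in the labels, on upright plates on the International Space Station and in a ground chamber. Whole roots were dissected from seedlings fixed in RNAlater. A sample pooled 5 to 8 roots at 4 d or 2 to 3 roots at 8 d, and each of the 8 groups had 4 samples. The groups were sku5 in spaceflight, sku5 on the ground, WS in spaceflight and WS on the ground, each at 4 d and at 8 d after the plates were unwrapped and lit. All groups grew from dry seed planted on plates and kept cold until that time, and the ground plants ran 48 h behind with the station's temperature, carbon dioxide and light. The authors deposited 1 value per group and locus and no value per sample, so the spread between samples enters here through their q-values alone. The labels do not say which samples shared a plate, so these q-values measure the spread between root pools. The tables list called loci (q under 0.05) and no others. A locus missing from a table was therefore not called there, and its level is not known. An FPKM of exactly 0 from Cuffdiff can be a failed estimate as well as an absence of reads, and these tables do not tell them apart, so such loci are called listed at 0.

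As a check of the labels, SKU5 (AT4G12420) was lower in sku5 roots, with 10.4 FPKM on the ground at 4 d, against 38.9 FPKM in WS roots in the authors' deposited table (q = 0.00558). At 8 d it stood at 23.5 FPKM in sku5 against 78.6 FPKM in WS on the ground in the authors' deposited table. In spaceflight at 8 d it stood at 14.2 against 61.9 FPKM. SKU5 is not listed with a value for either spaceflight group at 4 d, so the labels of those groups were not checked. The tables hold no levels of uncalled loci, so the root identity of each group could not be checked from root genes. Of 12 root cell genes, 5 loci are listed in any table. In spaceflight against ground, 0 were called in 4-d sku5 roots, 1 lower in 4-d WS, 3 lower in 8-d sku5 and 0 in 8-d WS roots. At 8 d against 4 d, 2 were lower in sku5 spaceflight, 1 in WS spaceflight, 1 in sku5 ground and 3 in WS ground roots, and 0 were higher. In sku5 against WS, 0 were called on the ground at 4 d, 1 was lower in spaceflight at 8 d and 1 was higher on the ground at 8 d. The part of these genes in the results for the 36 loci was not tested.

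Late in seed development the embryo fills with storage proteins and oil, dries out and becomes dormant. Abscisic acid and the regulators that act with it switch on genes for late embryogenesis abundant (LEA) proteins and dehydrins, which protect dry cells, and for oleosins, which coat oil bodies. Some of these regulators bind abscisic acid response elements, whose core is ACGTG. Others bind the RY element, whose core is CATGCA. After germination these transcripts and reserves are normally lost from the young seedling.

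Promoter sequences are shown because elements of this kind are frequent among the 36 loci. The windows are the 250 bases before the annotated start of each gene in RefSeq's TAIR10.1 build, which is the Columbia accession and not WS. All 36 gene names of the loci matched RefSeq by identifier, and 35 are protein-coding genes with a window. The chosen examples are a dehydrin gene, the gene with the most response element matches, the uncharacterized gene listed in the most tables and a gene without a match. They were picked after the matches had been counted. Capitals mark every match to these elements (with the G-box as a longer form of the first) on either strand, and all letters run 5′ to 3′ along the gene's own strand.
LEA (AT2G21490), chr2:9207126-9207375, minus strand: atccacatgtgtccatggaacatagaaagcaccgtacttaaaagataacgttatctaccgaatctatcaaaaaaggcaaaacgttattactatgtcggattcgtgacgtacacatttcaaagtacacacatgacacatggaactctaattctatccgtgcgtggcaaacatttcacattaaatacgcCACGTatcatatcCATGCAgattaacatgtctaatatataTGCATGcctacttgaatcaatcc
AT2G38905, chr2:16244532-16244781, minus strand: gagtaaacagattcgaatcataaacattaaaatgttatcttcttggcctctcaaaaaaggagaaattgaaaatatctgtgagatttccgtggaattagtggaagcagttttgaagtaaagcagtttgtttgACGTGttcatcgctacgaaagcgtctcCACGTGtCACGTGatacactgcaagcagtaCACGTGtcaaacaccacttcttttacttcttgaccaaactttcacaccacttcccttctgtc
AT5G55135, chr5:22379671-22379920, plus strand: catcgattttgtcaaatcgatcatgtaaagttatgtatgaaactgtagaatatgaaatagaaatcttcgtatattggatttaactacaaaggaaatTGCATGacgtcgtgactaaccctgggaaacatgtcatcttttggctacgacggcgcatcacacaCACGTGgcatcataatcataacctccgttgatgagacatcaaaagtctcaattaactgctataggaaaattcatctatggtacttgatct
AT1G17010, chr1:5817317-5817566, plus strand: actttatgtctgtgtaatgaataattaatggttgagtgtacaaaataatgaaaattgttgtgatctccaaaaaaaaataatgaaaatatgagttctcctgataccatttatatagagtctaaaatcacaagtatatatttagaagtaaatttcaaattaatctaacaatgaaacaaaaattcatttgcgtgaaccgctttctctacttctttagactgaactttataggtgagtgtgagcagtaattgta

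The response element core ACGTG was present on either strand in 21 of the 35 windows, or 60% of them, against 28.8% of 614 genes at the other loci higher in spaceflight in the same table and 22.9% of all 27443 windows. The full G-box CACGTG, which contains ACGTG, was present in 13 windows (37.1%), against 11.4% of the genes at the other higher loci and 6.49% of all windows. The RY core was likewise present in 13 windows (37.1%), against 10.3% of the genes at the other higher loci and 8.43% of all windows. Of the 35 windows, 25 held at least 1 of these motifs and 9 held both the response element core and the RY core, a pair found in 2.22% of all windows. In the printed examples AT2G38905 has 3 separate G-boxes, and LEA has 2 RY matches downstream of its response element core. The windows of AT1G17010 and of 9 other genes, among them the dormancy gene DOG1, held none of the letters searched. These are matches of letters in a reference sequence, not measured binding sites.

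The levels of the 36 loci in spaceflight differed widely. In the authors' deposited table the 4-d sku5 spaceflight group ran from 2.44 to 984 FPKM over the 36 loci, with a median of 16.3 FPKM, and the ground group was 0 for each by choice. The other loci higher in spaceflight in the authors' deposited table numbered 561, with a median of 24.3 FPKM in spaceflight and 7.55 FPKM on the ground. The 36 loci were thus not the most abundant of the loci higher in spaceflight. Of the 36, 5 were at 100 FPKM or above, 19 between 10 and 100 and 12 below 10 FPKM in the authors' deposited table. In all, 12.3% of the 4882 listed loci were higher in spaceflight in that table, and the 36 are among them by the rule. No fold change is given against a value of 0, and no test is drawn from these values. In root samples, fewer cells that hold a transcript and less of it per cell cannot be told apart.

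**Figure D1:**
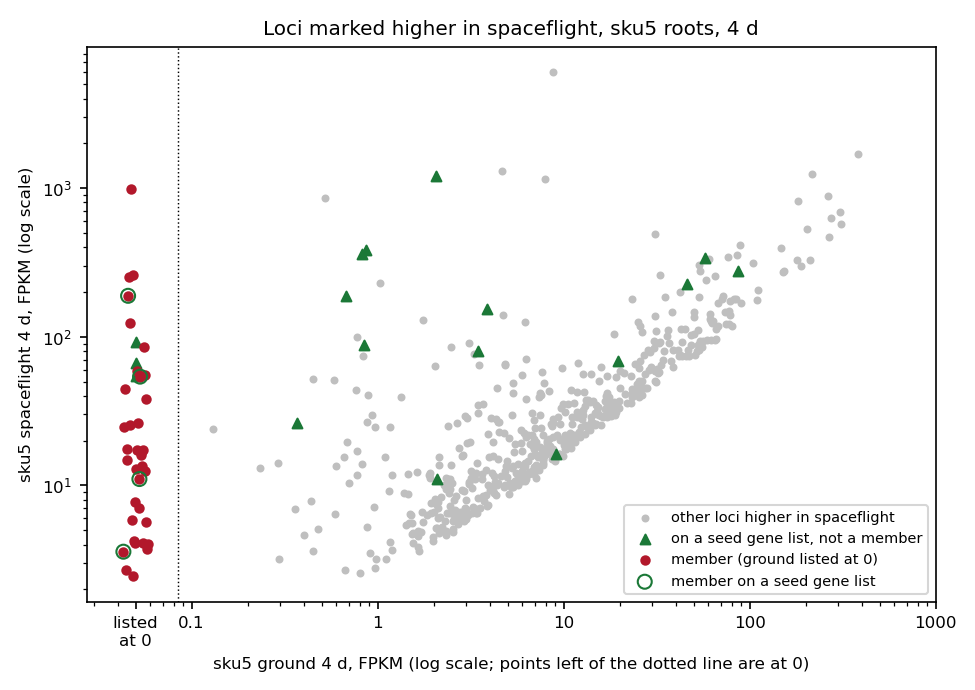
Level of each locus marked higher in spaceflight in 4-d sku5 roots, in FPKM on log axes, with spaceflight on the vertical and ground on the horizontal axis; points left of the dotted line are listed at 0 on the ground and are spread sideways for legibility. The 36 loci (red) run from 2.44 to 984 FPKM in spaceflight, and green triangles and rings mark loci of the seed gene lists, of which 3 at 0 were left out by the rule.

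Genes known from the drying seed were spread over that range. The dehydrin gene LEA stood at 189 FPKM in sku5 spaceflight roots in the authors' deposited table. AT5G53260 and AT5G53270, both annotated as seed maturation proteins, share a locus that stood at 53.9 FPKM in the authors' deposited table. AT4G39130, of the dehydrin family, was at 7.71 FPKM and RAB28 (AT1G03120), a LEA gene named for its response to abscisic acid, at 3.58 FPKM in the authors' deposited table. Also annotated for dry or cold conditions were AT1G47980, a desiccation-like protein, at 17.3 FPKM, AT3G03341, a cold-regulated protein, at 25.6 FPKM, and AT2G38905, of a family of low temperature and salt responsive proteins, at 252 FPKM in the authors' deposited table. DOG1 (AT5G45830), which sets the depth of seed dormancy, stood at 11.04 FPKM in the authors' deposited table.

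A pair of loci belongs to oil storage. AT1G48990, of the oleosin family, stood at 44.8 FPKM in sku5 spaceflight roots in the authors' deposited table. AT5G16460, of the seipins, proteins that shape lipid droplets, stood at 7.002 FPKM in the authors' deposited table. Genes of sugar and nitrogen supply were lower or similar: SPS3F (AT1G04920), a sucrose phosphate synthase, was at 4.10 FPKM and UPS4 (AT2G03520), a ureide permease, at 12.6 FPKM in the authors' deposited table.

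The most abundant named gene was GASA2 (AT4G09610), of a family of small cysteine-rich peptides known for responding to gibberellin, at 261 FPKM in sku5 spaceflight roots in the authors' deposited table. GASA2 has a second locus at the same coordinates with 13.5 FPKM in the authors' deposited table, so reads may have been divided between them. AT3G58450, annotated as an adenine nucleotide alpha hydrolase-like protein, stood at 123 FPKM, AT1G65090 at 85.9 FPKM and AT5G55135, an uncharacterized protein, at 59.1 FPKM in the authors' deposited table. AT2G29300, with an NAD(P)-binding fold, stood at 55.2 FPKM in the authors' deposited table. These exceeded most of the seed maturation genes above in level.

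Regulators and enzymes made up much of the lower range. The F-box gene AT5G04010 stood at 26.3 FPKM and the oxygenase genes AT1G17010 and AT5G54000, of the family that uses 2-oxoglutarate and iron, at 24.9 and 15.9 FPKM in sku5 spaceflight roots in the authors' deposited table. HIPP27 (AT5G66110) and AT1G51090, both with a heavy metal associated domain, were at 38.1 and 2.71 FPKM in the authors' deposited table. TET4 (AT5G60220), a tetraspanin of cell membranes, stood at 17.4 FPKM, and the locus that merges a serine tRNA gene (AT4G25585) with ADF7 (AT4G25590), an actin depolymerizing factor known from pollen, at 16.6 FPKM in the authors' deposited table. AT1G14930, of a lipid transport superfamily, was at 17.6 FPKM, AT1G23070, with a DUF300 domain, at 14.9 FPKM and AT5G24130 at 12.9 FPKM in the authors' deposited table. Between 2.44 and 5.86 FPKM in the authors' deposited table lay YAB3 (AT4G00180), a YABBY transcription factor of leaf polarity, CIL (AT4G25990), with a CCT motif, the cytochrome P450 gene CYP76C7 (AT3G61040), AT4G18920, the glycosyltransferase gene AT5G04500, the methyltransferase gene AT5G66430 and the membrane protein gene AT3G43520.

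At the edge of the rule, the members with the least signal in spaceflight were YAB3 at 2.44, AT1G51090 at 2.71, RAB28 at 3.58, AT3G43520 at 3.72 and AT5G66430 at 4.04 FPKM in the authors' deposited table. Just outside it the authors' deposited table had AT4G36850, at 24.0 FPKM in spaceflight against 0.130 FPKM on the ground, NHX3 (AT5G55470), at 13.1 against 0.232 FPKM, and AT2G34315, at 14.1 against 0.292 FPKM. The last ones in the authors' deposited table were AT2G23321, at 3.21 FPKM in spaceflight against 0.294 FPKM on the ground, and a locus merging CYP71B17 and CYP71B20, at 6.995 against 0.359 FPKM. Of these 5 loci outside the rule, AT2G23321 lay within the range of the 5 inside it in spaceflight, and the others lay above that range. No locus was at 0 for a group in one table and above 0 for the same group in another, over 20 pairs of tables that share a group.

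The locus with the highest level, 984 FPKM in sku5 spaceflight roots in the authors' deposited table, carries no gene name. It spans 77 bases on chromosome 3, from 5981767 to 5981843 in the authors' coordinates, which name no genome build and did not match TAIR10.1. It lies 94 bases from the authors' locus of AT3G17520, a late embryogenesis gene. AT3G17520 stood at 383 FPKM in sku5 spaceflight roots against 0.862 FPKM in sku5 ground roots in the authors' deposited table (q = 0.00378). The FPKM of so short a locus rests on few positions, and whether its reads belong to the neighbouring gene was not tested.

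AT1G65090 also needs care, because its locus spans 87846 bases on chromosome 1, from 23731361 to 23819206 in the authors' coordinates, and shares them with a second locus. The library kit does not mark strand, so reads from overlapping genes cannot be told apart there. In all, 3 of the 36 loci share coordinates with another listed locus, and the 36 were short, with a median length of 1588 bases against 3030 bases for the other loci higher in spaceflight.

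**Figure D2:**
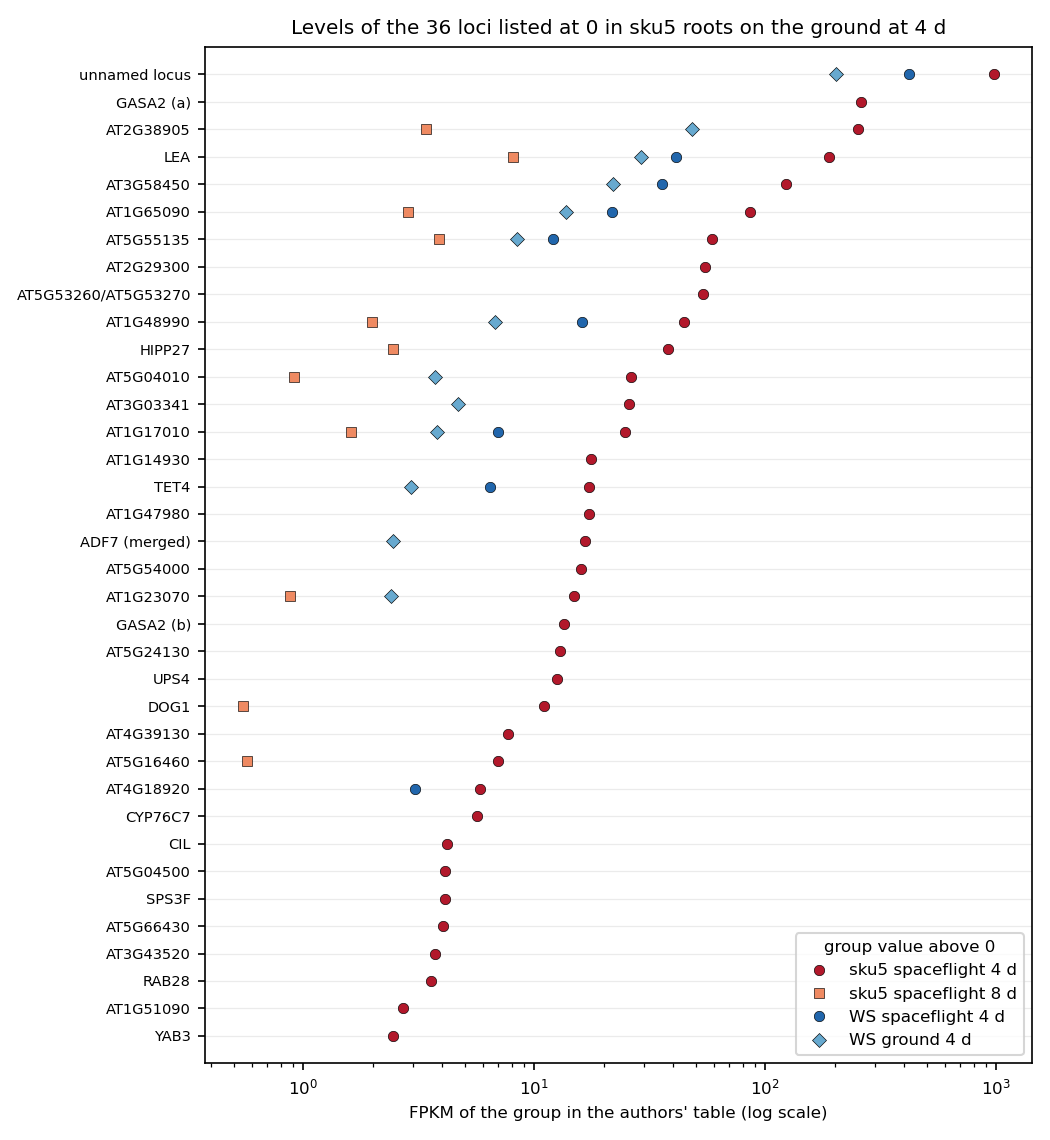
Levels of the 36 loci in FPKM on a log axis, 1 line per locus in order of the 4-d sku5 spaceflight value; red circles are sku5 spaceflight at 4 d, orange squares sku5 spaceflight at 8 d, blue circles WS spaceflight at 4 d and light blue diamonds WS ground at 4 d. Groups listed at 0 or not listed have no mark, and where a WS mark is present it lies left of the sku5 spaceflight mark at 4 d, with WS ground furthest left among the 4-d marks. The loci were chosen as higher in sku5 spaceflight at 4 d, which favours this order.

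Between ages, 12 of the 36 loci fell in sku5 spaceflight roots, lower at 8 d than at 4 d, and 0 rose. This is 33.3% of them, against 22.1% of all listed loci called lower in that comparison and 62.9% of the 561 other loci higher in spaceflight at 4 d. The comparison shares its 4-d spaceflight samples with the one that chose the loci, so a fall from a chosen high value is described and supports nothing by itself. For 10 of the 12 the value at 8 d was above 0, between 0.550 and 8.07 FPKM in the authors' deposited table. These 10 were 13.1- to 79.4-fold lower at 8 d, with a median of 19.9-fold, against a median of 2.13-fold over all 1070 loci lower at 8 d and above 0 in the authors' deposited table. Steep falls were not particular to the 36 loci. The loci left out by the rule were 54.8- to 74.5-fold lower in the authors' deposited table. Those called among the loci just outside the rule were 2.22- to 15.6-fold lower there. The median fall of the 561 other loci was not taken.

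The dehydrin gene LEA fell to 8.07 FPKM at 8 d in sku5 spaceflight roots, against 202 FPKM at 4 d in the authors' deposited table (q = 0.00125), a log2 difference of -4.65 with a standard error of 0.50 taken from the authors' test statistic. AT2G38905 stood at 3.40 FPKM at 8 d against 270.2 FPKM at 4 d in the authors' deposited table (q = 0.0303), the 79.4-fold fall that is the largest of the 1070. The oleosin gene AT1G48990 was at 1.99 FPKM at 8 d against 48.0 FPKM at 4 d in the authors' deposited table (q = 0.00125). DOG1 was low but still above 0, with 0.550 FPKM at 8 d against 11.8 FPKM at 4 d in the authors' deposited table (q = 0.0434). Seed protection, oil and dormancy genes thus each had a member that fell.

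The remaining falls were of mixed function. AT5G55135 stood at 3.89 FPKM at 8 d against 63.3 FPKM at 4 d in sku5 spaceflight roots in the authors' deposited table (q = 0.00503). HIPP27 had 2.45 against 40.9 FPKM, AT5G04010 0.909 against 28.2 FPKM, and AT1G17010 1.61 against 26.6 FPKM, at 8 d and 4 d, in the authors' deposited table. In the authors' deposited table AT1G23070 stood at 0.878 FPKM at 8 d against 15.95 FPKM at 4 d (q = 0.00125), and the seipin gene AT5G16460 at 0.571 against 7.51 FPKM (q = 0.0380). Listed at 0 at 8 d in the authors' deposited table were the unnamed locus, against 1055 FPKM at 4 d, and AT1G51090, against 2.90 FPKM at 4 d (q = 0.00125 for both). The other 24 loci are not listed for this comparison.

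**Figure D3:**
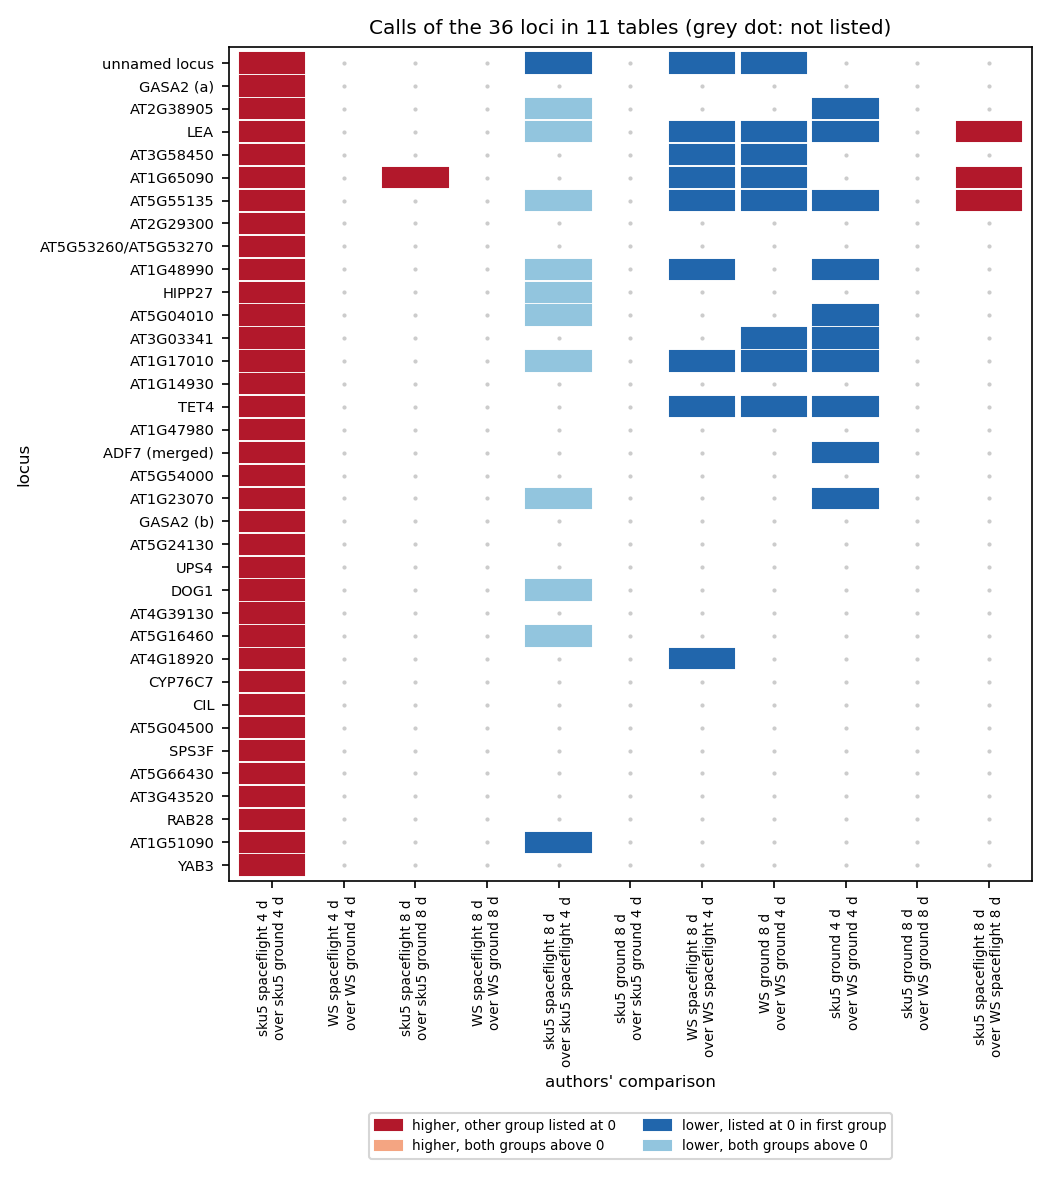
Calls of each of the 36 loci (lines) in each of the 11 comparisons (columns), the first group named over the second; red is higher, dark blue is lower with the first group listed at 0, light blue is lower with both groups above 0, and a grey dot means not listed. The first column is the comparison that chose the loci, and the other calls gather in the comparisons of 8 d with 4 d and of sku5 with WS on the ground at 4 d.

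In WS roots, which the choice of loci did not use, the same direction with age was found in both environments. In spaceflight 9 of the 36 loci (25%) were called lower at 8 d than at 4 d and 0 higher, against 12.4% of all listed loci called lower and 25.3% of the 561 other loci higher in sku5 spaceflight. On the ground 8 of the 36 (22.2%) were called lower at 8 d and 0 higher, against 12.1% of all listed loci and 16.9% of the 561. The shares lay above those of all listed loci and near those of the other risers. Every one of these loci was listed at 0 in WS at 8 d in the authors' deposited tables, 9 in spaceflight and 8 on the ground, 7 of them in both. Over all listed loci, a value of 0 at 8 d was given to 24 in WS spaceflight and 32 in WS ground roots in the authors' deposited tables. How many of those were at 0 in both was not counted, so the overlap of 7 says nothing particular of the 36 loci.

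Values of the 7 shared loci show levels already present in young WS roots. LEA was listed at 0 at 8 d against 41.1 FPKM at 4 d in WS spaceflight roots (q = 0.00218) in the authors' deposited table. On the ground LEA was listed at 0 at 8 d against 29.0 FPKM at 4 d in WS in the authors' deposited table (q = 0.00217). AT3G58450 was listed at 0 at 8 d against 35.8 FPKM at 4 d in WS spaceflight and 0 against 21.97 FPKM in WS ground roots in the authors' deposited tables (q of 0.0343 and 0.0363). The dehydrin and the hydrolase-like gene thus fell to a listed 0 in both environments.

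AT1G65090 was listed at 0 at 8 d against 21.7 FPKM at 4 d in WS spaceflight and 0 against 13.8 FPKM in WS ground roots in the authors' deposited tables (q of 0.0290 and 0.0446). AT5G55135 was listed at 0 at 8 d against 12.1 FPKM at 4 d in WS spaceflight and 0 against 8.40 FPKM in WS ground roots in the authors' deposited tables. AT1G17010 was listed at 0 at 8 d against 6.997 FPKM at 4 d in WS spaceflight and 0 against 3.79 FPKM in WS ground roots in the authors' deposited tables. For TET4 the 8-d values were 0 and the 4-d values 6.48 FPKM in WS spaceflight and 2.93 FPKM in WS ground roots in the authors' deposited tables. These last 3 loci had q-values of 0.00218 in spaceflight and 0.00217 on the ground in the authors' deposited tables.

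The unnamed locus was listed at 0 at 8 d against 418 FPKM at 4 d in WS spaceflight and 0 against 203 FPKM in WS ground roots in the authors' deposited tables (q of 0.0317 and 0.0492). The remaining 3 loci were called in a single environment. For WS spaceflight the authors' deposited table listed at 0 at 8 d the oleosin gene AT1G48990, against 16.04 FPKM at 4 d, and AT4G18920, with a DUF1264 domain, against 3.07 FPKM at 4 d (q = 0.00218 for both). In WS ground roots AT3G03341 was listed at 0 at 8 d against 4.66 FPKM at 4 d in the authors' deposited table (q = 0.00217). The difference between environments was not tested, since the tables hold no samples.

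For genotype, 10 of the 36 loci were called lower in sku5 than in WS ground roots at 4 d and 0 higher. This is 27.8%, against 4.06% of all listed loci called lower there and 14.1% of the 561 other loci. The comparison shares the 4-d sku5 ground samples whose value of 0 chose the loci, so the direction is fixed by the choice and supports nothing. A locus at 0 in sku5 could be called here only with a WS level above 0, so that these WS levels exceed 0 is fixed too. The choice did not fix how many loci were called, but a value of 0 in sku5 favours such a call. The share of loci called is therefore a description as well. This comparison gives WS levels for the called loci alone. In WS these ran from 2.41 to 48.4 FPKM over the 10 loci in the authors' deposited table, each against a listed 0 in sku5 (q = 0.00558 for all 10).

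The highest of these WS levels was that of AT2G38905, listed at 0 in sku5 ground roots against 48.4 FPKM in WS ground roots in the authors' deposited table. In the authors' deposited table LEA was listed at 0 in sku5 against 27.4 FPKM in WS, AT5G55135 at 0 against 7.94 FPKM and the oleosin gene AT1G48990 at 0 against 6.76 FPKM. The authors' deposited table also listed AT3G03341 at 0 in sku5 against 4.40 FPKM in WS, AT5G04010 at 0 against 3.73 FPKM and AT1G17010 at 0 against 3.58 FPKM. The WS levels of the last 3 loci were the lowest in the authors' deposited table, with TET4 at 0 in sku5 against 2.77 FPKM in WS, the ADF7 locus at 0 against 2.46 FPKM and AT1G23070 at 0 against 2.41 FPKM. Of these 10 loci, 5 were also among the 8 that fell to 0 with age in WS ground roots. Both comparisons use the same younger WS ground samples, so a high level there favours a call in both. The same overlap was not counted over all listed loci or the other risers. The overlap of 5 therefore says nothing particular of these loci.

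Set side by side across tables, the levels at 4 d ran in the same order for each locus that has them. The scale of a group shifts by up to 10.8% from table to table, and these are descriptions with no test. The sku5 spaceflight levels come from the comparison that chose the loci as higher in that group. Their place above the WS levels is therefore favoured by the choice and supports nothing. The sku5 spaceflight level was 1.91 to 4.89 times the WS spaceflight level for 9 loci, with a median of 3.43, from the authors' deposited tables. It was 4.85 to 7.03 times the WS ground level for the 8 loci of the WS ground age table, with a median of 6.08, from the authors' deposited tables. With the WS ground level taken from the comparison of genotypes it was 5.21 to 7.44 times as high for 10 loci, with a median of 6.69, from the authors' deposited tables. For the 7 loci with both WS values, WS spaceflight was 1.42 to 2.21 times WS ground, with a median of 1.63, from the authors' deposited tables. A table of sku5 against WS in spaceflight for this younger age was not analysed here.

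That order in WS did not reach a call in the comparison made for it. Of the 36 loci, 0 were called in either direction between spaceflight and ground in 4-d WS roots by the authors' Cuffdiff test, where 2.62% of all listed loci and 4.46% of the 561 other loci were called. Counts at an unadjusted p could not be given, because uncalled loci are not in the tables. Over all loci 128 were called there, each with a q of 0.0113 or more in the authors' deposited table. The missing calls do not show that the levels in WS were alike.

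At 8 d few of the 36 loci were called. In sku5 spaceflight against sku5 ground, 1 locus was called higher (2.78%), against 11.1% of all listed loci and 11.9% of the 561 other loci. It was AT1G65090, at 2.84 FPKM in spaceflight and listed at 0 on the ground in the authors' deposited table (q = 0.0316). In sku5 against WS in spaceflight 3 loci were called higher (8.33%), against 11.9% of all listed loci and 10.7% of the 561. LEA stood at 8.39 FPKM in sku5 and AT5G55135 at 4.05 FPKM, each listed at 0 in WS, in the authors' deposited table (q = 0.00182 for both). AT1G65090 stood at 2.84 FPKM in sku5 and was listed at 0 in WS in the authors' deposited table (q = 0.0373). These shares were at or below the background, so the counts say nothing particular of the 36 loci.

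In the remaining comparisons 0 of the 36 loci were called by the authors' Cuffdiff test. In WS spaceflight against WS ground at 8 d, 18.2% of all listed loci and 8.91% of the 561 were called in either direction. For the 7 members listed at 0 in both of these groups no call was possible. In sku5 against WS on the ground at 8 d these shares were 10.8% and 4.10%. The comparison of sku5 ground roots at 8 d with 4 d shares the samples whose value of 0 chose the loci, so a fall was not possible there. For a rise, 10.5% of all listed loci and 9.98% of the 561 were called higher at 8 d in that comparison.

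**Figure D4:**
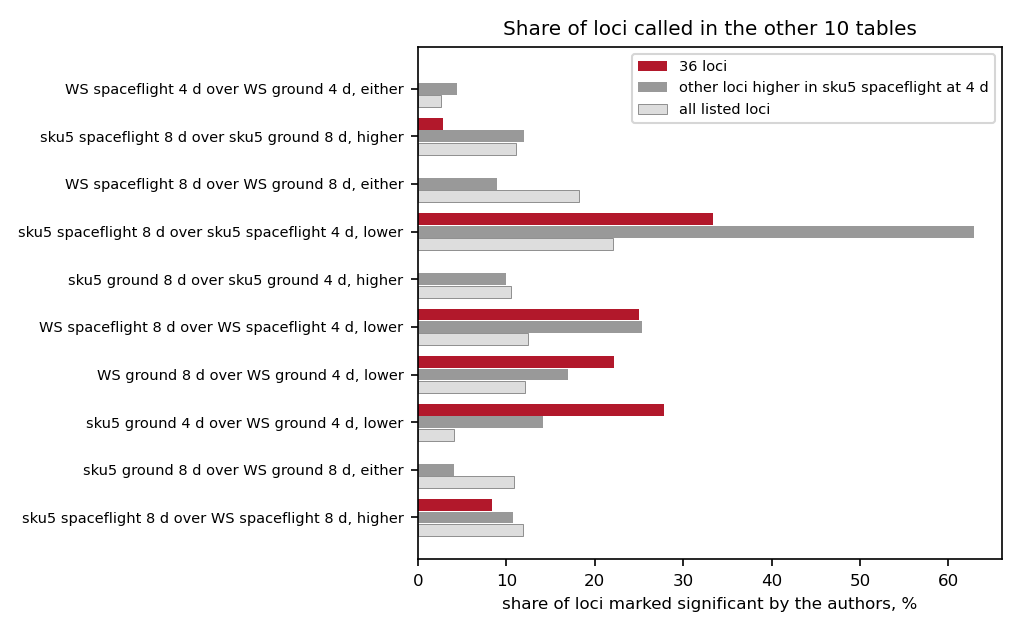
Share of loci marked significant by the authors, in percent, in the 10 comparisons that did not choose the loci, each named with its first group over the second and with the direction counted; red bars are the 36 loci, dark grey bars the 561 other loci higher in 4-d sku5 spaceflight roots and light bars all 4882 listed loci. The red bars are longest for sku5 spaceflight at 8 d over 4 d (33.3%), sku5 over WS ground at 4 d (27.8%) and the WS age comparisons (25% and 22.2%). The sku5 spaceflight age comparison and the ground genotype comparison at 4 d share samples with the choice. For the 561 other loci the bar was 62.9% with age in sku5 spaceflight and 25.3% with age in WS spaceflight.

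How often a locus was listed also varied. Of the 36 loci, 18 appear in no other table, 6 in 2 tables, 5 in 3, 3 in 4, 2 in 5 and 2 in 6. The loci listed most often were LEA and AT5G55135, with 6 tables each, and AT1G65090 and AT1G17010, with 5 each. Of the 36, 10 were called in a table that shares no samples with the choice. The same counts were not made over all listed loci or the other risers, so these counts say nothing particular of the 36 loci. Those without any other listing included the more abundant GASA2 locus, AT2G29300 and the merged seed maturation locus, which were above 50 FPKM in sku5 spaceflight roots in the authors' deposited table. By level in sku5 spaceflight roots, 4 of the 5 loci at 100 FPKM or above, 11 of the 19 between 10 and 100 FPKM and 3 of the 12 below 10 FPKM in the authors' deposited table were also listed in another.

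Lists of seed genes, chosen with earlier results of these data known, were set beside these loci. Whether each list gene marks seed tissue was not tested. Of 87 genes on 6 lists, 40 loci are listed in any table. The lists hold storage proteins, oil body proteins, LEA proteins and dehydrins, small heat shock proteins with their regulators, seed regulators and other mature seed genes. Of the 36 loci 4 are on these lists (11.1%), against 0.819% of all listed loci, and they are LEA, RAB28, the merged seed maturation locus and DOG1. The share was not taken over the other loci higher in spaceflight, so it does not set the 36 loci apart from those. The rule left out 3 loci of these lists that were at 0, and the oleosin family gene AT1G48990, a member, is on none of them. In 4-d sku5 roots 21 of the 40 loci were called higher in spaceflight and 0 lower, 17 of them outside the 36. Summed over those 17 the level was 3638 FPKM in spaceflight against 234 FPKM on the ground, where 3 were at 0, in the authors' deposited table. Loci that merge a list gene with neighbouring genes gave the largest ground values in this sum. In the authors' deposited table the AtLEA4-1 locus was at 86.9 FPKM on the ground and 279 FPKM in spaceflight. In that table the ICL locus was likewise at 57.5 and 336 FPKM and the LEA4-5 locus at 46.0 and 227 FPKM. The EEL locus stood there at 19.7 and 68.5 FPKM. The sums thus include neighbouring genes and are not levels of seed genes alone. The part of these 17 loci in the results for the 36 loci was not tested.

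Seed list genes outside the 36 loci included LEA7 (AT1G52690), a LEA gene, at 153 FPKM in sku5 spaceflight against 3.89 FPKM in sku5 ground roots in the authors' deposited table (q = 0.00207). AHG1 (AT5G51760), a phosphatase that restrains abscisic acid signalling in seeds, stood at 26.2 FPKM in spaceflight against 0.368 FPKM on the ground in the authors' deposited table (q = 0.00917). HSP23.6-MITO (AT4G25200), a mitochondrial small heat shock protein, stood at 88.1 FPKM in spaceflight against 0.846 FPKM on the ground in the authors' deposited table (q = 0.0148).

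The loci of the seed lists were called in the other comparisons as follows, members included. Between 8 d and 4 d, 1 list locus was higher and 29 lower in sku5 spaceflight, and 0 higher and 13 lower in WS spaceflight. On the ground 1 was higher and 15 lower in WS roots, and 0 higher and 3 lower in sku5 roots. The locus higher with age, in sku5 spaceflight and in WS ground roots, merges LEC2 with AGP31. Its rise cannot be assigned to either gene. Between sku5 and WS on the ground at 4 d, 0 were higher and 11 lower, and the 10 outside the 36 loci summed to 12.8 FPKM in sku5 against 421 FPKM in WS in the authors' deposited table. In spaceflight against ground, 4 were higher and 0 lower in WS at 4 d, 8 higher and 0 lower in sku5 at 8 d, and none in WS at 8 d. In sku5 against WS at 8 d, 6 were higher and 0 lower in spaceflight, and 1 higher and 0 lower on the ground. The locus higher on the ground merges ABI5 with AT2G36290, so the call cannot be assigned to either gene.

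Green shoot genes were counted in the same way. Of 13 such genes, 6 loci are listed in any table. In spaceflight against ground, 5 were higher and 0 lower in 4-d WS roots, and 0 were called in 4-d sku5, 8-d sku5 or 8-d WS roots. At 8 d against 4 d, 4 were lower in sku5 spaceflight, 6 in WS spaceflight, 3 in sku5 ground and 5 in WS ground roots, and 0 were higher. These falls with age occurred in the WS comparisons in which members of the 36 loci and the seed lists also fell. In sku5 against WS, 0 were called on the ground at 4 d, and at 8 d 1 was lower in spaceflight and 1 lower on the ground. The part of green shoot genes in the results for the 36 loci was not tested.

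The 36 loci were spread over all chromosomes. Chromosome 1 held 9 of them (25%, against 26.5% of all listed loci), chromosome 2 held 4 (11.1%, against 16.5%) and chromosome 3 held 5 (13.9%, against 19.1%). Chromosome 4 held 7 (19.4%, against 14.8%) and chromosome 5 held 11 (30.6%, against 22.8%).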

How the data were processed

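SMART-Seq v4 cDNA from 10 ng of total RNA was made into Nextera libraries, per the labels' protocols. Tools in the submitters' processing notes are STAR 2.5.1b, Trimmomatic 0.36, Cufflinks with Cuffdiff, FastQC 0.11.2 and Picard. Their settings and the genome build are not given in the sources used here. Per the file headers, each of the 11 deposited tables gives 1 FPKM per group and locus, a fold change on the log2 scale, a signed test score, and the authors' p-value and q-value. Of columns with values per sample, 0 were used, so depth is unknown and no library-level fit, planned in case such values existed, could be made.

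Spaceflight was set over ground, the older age over the younger and sku5 over WS, with Python 3.11.15 and pandas 2.3.3. The authors' calls stand as deposited. The standard error of a log2 difference is that value divided by the authors' score. Shares called are over the 4882 loci listed in any table, not over all loci tested. The code was tested on simulated data. Motifs were searched in 250 bases before RefSeq TAIR10.1 gene starts. The authors' coordinates overlap the same gene in TAIR10.1 at 6.21% of 4446 loci, so no sequence was read by them.

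Members and gene lists were chosen with earlier results of these data known. Every member is named. Full values are given for members listed in a table without shared samples and for the 10 highest in spaceflight, with 5 loci on each side of the rule.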

Additional observations from a re-analysis of the deposited data

How the results depend on the processing

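With a q under 0.01 in place of 0.05, members called higher in sku5 spaceflight against ground at 8 d numbered 0 in place of 1, and those lower with age in WS ground roots 5 in place of 8. Members on the seed lists numbered 7 in place of 4 when no gene was left out of the rule, and 9 when a ground value under 1 percent of spaceflight replaced the value of 0. The count of 7 follows from adding the left-out genes, and the count of 9 from admitting list loci with ground values above 0. The member dropped in sku5 at 8 d, AT1G65090, had an authors' Cuffdiff q of 0.0316. Those dropped in WS ground roots were AT3G58450, AT1G65090 and the unnamed locus, with q of 0.0363, 0.0446 and 0.0492. The number of members was 25 at a q under 0.01, 33 without merged and unnamed loci, 39 with no gene left out and 49 under the 1 percent rule. It was 32 without the unnamed locus and those with shared coordinates, an alternative chosen after seeing the data. In all, 61 of the values kept their direction and stayed within 1.5 times, and 4 moved. Some of the 61 could not have moved, because a count of 0 cannot rise under a stricter filter. In the comparison of the rule, minima of 1 FPKM and 2-fold could remove no member, since each had at least 2.44 FPKM against 0.

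No paired analysis was possible because the tables hold group values without samples. For the same reason leaving out each replicate, other pseudocounts and a filter on low values over all loci tested were not run. Depth is unknown, so a listed 0 sets no upper limit on a level.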
